A study of Homo sapiens with 10 samples.

Results

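Very long introns, here annotated introns of at least 20000 nts, were followed in the split and unspliced reads of A549 cells after treatment with 2 drugs that act on transcription by RNA polymerase II. An intron was included when its ends matched an intron of GENCODE v44lift37 exactly, when at least 20000 nts lay between the flanking exon bases, and when the 2 DMSO libraries together held at least 20 split reads over it. A split read crosses a splice junction and counts for the intron it skips. The rule kept 2162 of the 126404 introns listed in any library, and 60064 annotated introns below 20 kb that met the same minimum of reads served for comparison. Another 3245 annotated introns of this length were listed with fewer than 20 split reads in DMSO, and 245 of the chosen introns had between 20 and 25.

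A549 is a human lung adenocarcinoma line, and poly(A) RNA was sequenced from 2 libraries in each of 5 conditions. The control libraries received DMSO. α-Amanitin was given at 1 or 2 μg/ml for 24 h, and DRB (5,6-dichloro-1-beta-D-ribofuranosylbenzimidazole) at 10 or 25 μg/ml, with no duration for DRB or DMSO in the sources used here. The lower and higher amount of each drug are called low-dose and high-dose below. All libraries came from the same unmodified line, both doses of a drug were compared with the same DMSO libraries, and since the labels do not describe the libraries as separate cultures, a p-value covers the spread among libraries, which may be technical. Split reads over introns came to between 2899344 and 6498515 per library, with both extremes in treated libraries (replicate 1 at 25 μg/ml DRB and replicate 2 at 1 μg/ml α-amanitin). Of 10 epithelial markers, 5 were listed and 5 (EPCAM, KRT19, CDH1, SFTPB and NKX2-1) had no listed intron in any library. The summed level of the markers was 735 to 872 RPM (split reads scaled to library size) in the 4 DRB libraries and 1420 to 1470 in the others. Blood markers summed to at most 16.4 and fibroblast markers to at most 158 RPM, no endothelial marker was listed, and PTPRC, CD3E, COL1A2, COL3A1 and PDGFRB were not listed in any library. Whether these levels bear on the results below was not tested.

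An intron is removed by the spliceosome once its donor, branch point and acceptor have been transcribed, and most introns are spliced while the polymerase is still on the gene. In a long intron the donor has to wait for its acceptor, and cryptic splice sites in between can compete for it. First introns are typically the longest of a gene. α-Amanitin binds RNA polymerase II and slows its translocation, whereas DRB inhibits CDK9, the kinase of P-TEFb that releases paused polymerase into productive elongation.

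The 2162 introns ranged from 20023 to 347007 nts with a median of 33405.5 nts. Of these, 1603 were 20 to 50 kb long, 426 were 50 to 100 kb and 133 were 100 kb or longer. A first intron of an annotated transcript made up 1079 of them (49.9%, against 29% of the annotated introns below 20 kb), and 1083 lay further downstream. Most, 1826, lay between coding exons, 281 lay in a 5′ untranslated region, 4 in a 3′ untranslated region and 36 in noncoding transcripts. They belonged to 1385 genes, of which 938 had 1 such intron. The most, 10 each, were found in ADK, which encodes adenosine kinase, and in FSTL5. A donor was shared with another very long intron in 76 cases and an acceptor in 65.

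The splice sites of the introns on which the usage results turn are shown first, because the 2 introns in HNRNPC and the 2 in TNS3 share an acceptor and differ by donor. Sequences are from GRCh37, read 5′ to 3′ on the strand of the gene, with intronic bases in capitals and exonic bases in lower case.
HNRNPC outer donor (chr14:21737447-21737466, minus strand): ccccttcttgGTAAGTGGAG
HNRNPC middle donor (chr14:21731460-21731479, minus strand): ttcagctacaGTAAGTTATT
HNRNPC shared acceptor (chr14:21702379-21702406, minus strand): CTTTTTTTTGCTTTACAGttttcggctt
TNS3 rising donor (chr7:47621639-47621658, minus strand): gctcccccagGTACTGGGGC
TNS3 falling donor (chr7:47622015-47622034, minus strand): gcctccccagGTACTCTAAC
TNS3 shared acceptor (chr7:47568736-47568763, minus strand): CTTCCTTTACTTTTTCAGccggaagaat
RAB1A donor (chr2:65357017-65357036, minus strand): atcccgaataGTGAGTTCAG
RAB1A acceptor (chr2:65331931-65331958, minus strand): TTCTTTTTCTTTTTGCAGtgattattta
KCNMA1 donor (chr10:79397013-79397032, minus strand): caagacgaagGTAACGCGCG
KCNMA1 acceptor (chr10:79163772-79163799, minus strand): TGCTCTCTCTGTTGCCAGgaggcccaga
NEDD4L falling donor (chr18:55919277-55919296, plus strand): aaatagactgGTAAGTGGAT
NEDD4L falling acceptor (chr18:55983196-55983223, plus strand): TTGTTCTCTTCCTAACAGacacgagacg
All 7 donors begin with GT and all 5 acceptors end with AG. The 6 intronic letters GTAAGT, searched on the strand of the gene, opened 3 of these 7 donors and 19.7% of the 2123 donors of very long introns. The same letters opened 19.1% of the donors of annotated introns of 5 to 20 kb and 13.5% of those below 5 kb.

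Under high-dose DRB reads also joined the sites of very long introns to partners inside the intron, by junctions that match no annotated intron. Such partners, and inner exons inferred from pairs of such junctions, are called unannotated below. Whether the sites or exons themselves are annotated was not checked. The following 3 introns are shown because an unannotated exon within each had split reads on both of its sides in both libraries at that dose and in no DMSO library.
DNAJB6 donor (chr7:157178296-157178315, plus strand): acaataaatgGTAAGGAGCA
DNAJB6 inner acceptor (chr7:157182757-157182784, plus strand): GCTGCTGTGTCCTGGCAGgtgtgccctg
DNAJB6 inner donor (chr7:157183079-157183098, plus strand): gccctgttagGTTGGTTTCT
DNAJB6 acceptor (chr7:157202471-157202498, plus strand): CTCCCGCTGTGCCTGCAGgtgtggccga
CD44 donor (chr11:35211603-35211622, plus strand): cctgctaccaGTAAGGAGAA
CD44 inner acceptor (chr11:35222175-35222202, plus strand): TCATGGTATAACTTTCAGttatctgcct
CD44 inner donor (chr11:35222733-35222752, plus strand): aggatgactgGTAATGGGTT
CD44 acceptor (chr11:35236381-35236408, plus strand): CCTGATTGCTCATTACAGgagaccaaga
TXNRD1 donor (chr12:104682809-104682828, plus strand): aaccttgaagGTAGGAGAGA
TXNRD1 inner acceptor (chr12:104697550-104697577, plus strand): CTTTCCACACGCTGGGAGggccgttacc
TXNRD1 inner donor (chr12:104698001-104698020, plus strand): tctgatttggGTAAAGAAAA
TXNRD1 acceptor (chr12:104705050-104705077, plus strand): TCTGTTATTTTTCTTTAGgcttatcagg
All 3 inner donors keep the opening GT and none carries GTAAGT. Over all 314 unannotated inner donors, 95.2% opened with GT and 9.24% with GTAAGT. Of 319 inner acceptors, 99.4% closed with AG and 56.1% with CAG, and C or T made up 72.2% of the 20 bases before the last 4. Split reads had been filtered on splice site dinucleotides before listing, so the GT and AG shares here and above partly follow from that filter. For the acceptors of very long introns themselves, CAG was found in 59.8% and the share of C or T was 76.3%.

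Very long introns, chosen on their reads in DMSO, kept their share of all split reads under low-dose α-amanitin and low-dose DRB to within a few percent. They held a smaller share under high-dose DRB. The share was 1.79% in each DMSO library and 1.80% in each library under low-dose α-amanitin. It was 1.58% and 1.72% under high-dose α-amanitin, 1.83% and 1.81% under low-dose DRB, and 1.35% and 1.32% under high-dose DRB. The mean under high-dose DRB was thus 0.745 of the DMSO mean, and under high-dose α-amanitin it was 0.920. With 2 libraries against 2, an exact two-sided permutation test gives at best p = 0.333, so these pooled values are descriptions. The choice on reads in the same DMSO libraries can by itself lower the treated shares. Over any listed annotated intron of 20 to 50 kb, the ratios to DMSO were 1.07 and 0.982 at the low and high dose of α-amanitin. At those of DRB they were 1.11 and 0.785.

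Part of this share depends on which introns were listed at all, since a listed intron has at least 3 split reads and at least 11 reads over its 5 counts. In DMSO 98.6% and 99.2% of the very long introns were listed, under high-dose DRB 42.6% and 59.7%, and in each of the other treated libraries between 86.7% and 97.7%. Introns below 20 kb were listed at 52.1% and 66.1% under high-dose DRB. Among introns with 20 to 49 split reads in DMSO, the very long ones were listed at 24.4% and 41.7% there and the shorter ones at 26.8% and 42%. Restricted to the 819 very long introns listed in all 10 libraries, the share of all split reads under high-dose DRB was 8.12% above the DMSO mean. This restriction itself favours introns with many reads at that dose, and the part of the minimum in the lower share was not tested.

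Position in the gene separated the introns further. First introns of the set took 0.953% and 0.973% of all split reads in DMSO and 0.821% and 0.813% under high-dose DRB. Those further downstream took 0.841% and 0.815% in DMSO and 0.526% and 0.507% under high-dose DRB. The means at that dose were 0.848 and 0.624 of the DMSO mean, and no library overlapped DMSO in either class. This split by position was not made for introns below 20 kb or over those listed in all 10 libraries. The other introns of the same genes stood at 0.854 of their DMSO mean (14.0% and 13.2% of split reads in DMSO, 12.4% and 10.8% under high-dose DRB). As a share of their genes' split reads, very long introns had 11.3% and 11.9% in DMSO and 9.78% and 10.8% under high-dose DRB. Over introns listed in all 10 libraries the corresponding values were 10.7% and 11.2% against 10.23% and 11.04%, which overlapped.

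The longest class, 133 introns of 100 kb and over, had 0.0717% and 0.0709% of split reads in DMSO. It had 0.0626% and 0.0676% under low-dose α-amanitin and 0.0541% and 0.0584% under high-dose α-amanitin, with means of 0.913 and 0.789 of DMSO. Under low-dose DRB the values were 0.0754% and 0.0742% (1.05 of the DMSO mean), and under high-dose DRB 0.0503% and 0.0477% (0.687). Introns of 5 to 20 kb reached 0.755 of their DMSO mean under high-dose DRB and introns below 1 kb 1.07. When introns of 100 kb and over were instead chosen by 200 split reads over all 10 libraries, which leaves 58, the ratios were 0.966 and 0.850 for the α-amanitin doses and 1.15 and 0.930 for those of DRB.

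**Figure D1:**
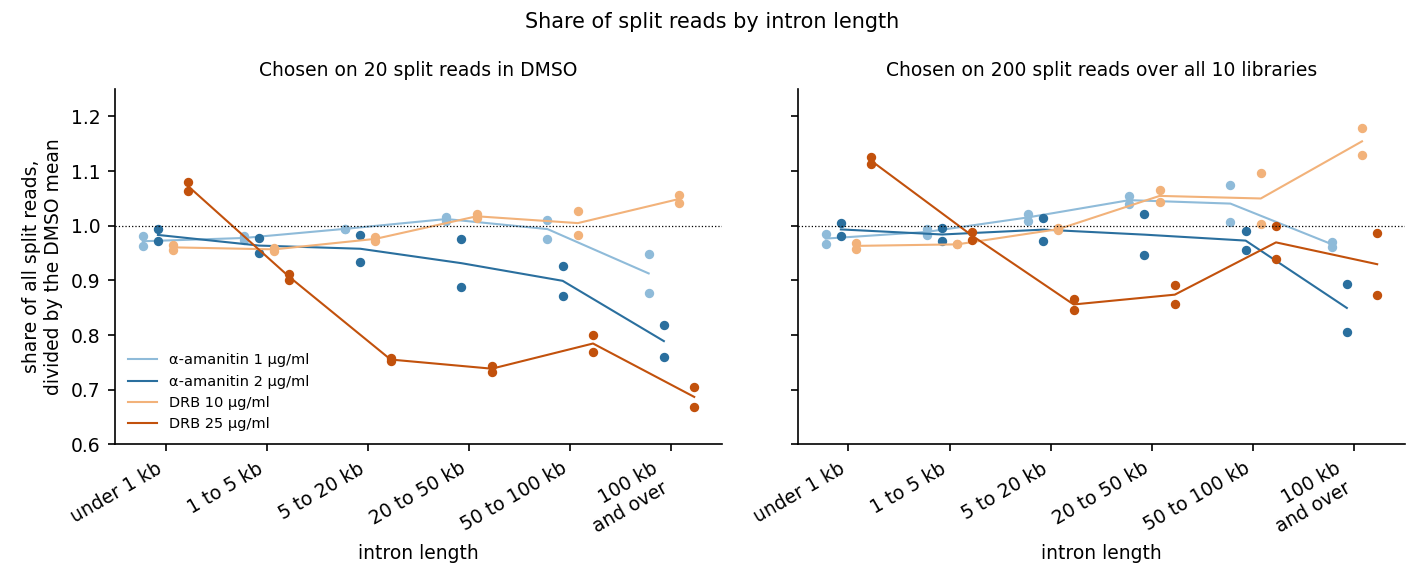
Share of all split reads by intron length class (x axis), divided by the mean of the DMSO libraries (y axis), for introns chosen on 20 split reads in DMSO (left) and on 200 split reads over all 10 libraries (right); points are single libraries and lines join the means of 2. Under high-dose DRB the class of 100 kb and over lies at 0.687 of DMSO on the left and at 0.930 on the right, while under high-dose α-amanitin it lies at 0.789 and 0.850.

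Usage, the share of a gene's split reads that lies over one intron, was then tested for single introns with a quasi-binomial model moderated by limma, and log2 changes of the odds are given with their standard errors. The gene totals of these tests sum only introns listed in every library of the fit. Junctions missing from any of these libraries are left out, also where they have many reads at a single dose. Only introns listed in every library of a fit with at least 30 split reads could be tested, which left 1671 of the 2162 for α-amanitin and 776 for DRB. None of the 1671 changed under low-dose α-amanitin by this test (97 had an unadjusted p under 0.05), where 0% and 0.00181% of all 55190 introns rose and fell. Under high-dose α-amanitin 3 rose and 2 fell, with 0.129% and 0.188% over all introns. For DRB, 5 rose and 2 fell of 776 under low-dose DRB (0.341% and 0.287% of all 29662 introns), and 13 rose and 16 fell under high-dose DRB (1.16% and 1.45%). The shares called among very long introns under high-dose DRB thus lay somewhat above those over all introns in both directions, a difference that was not tested.

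**Figure D2:**
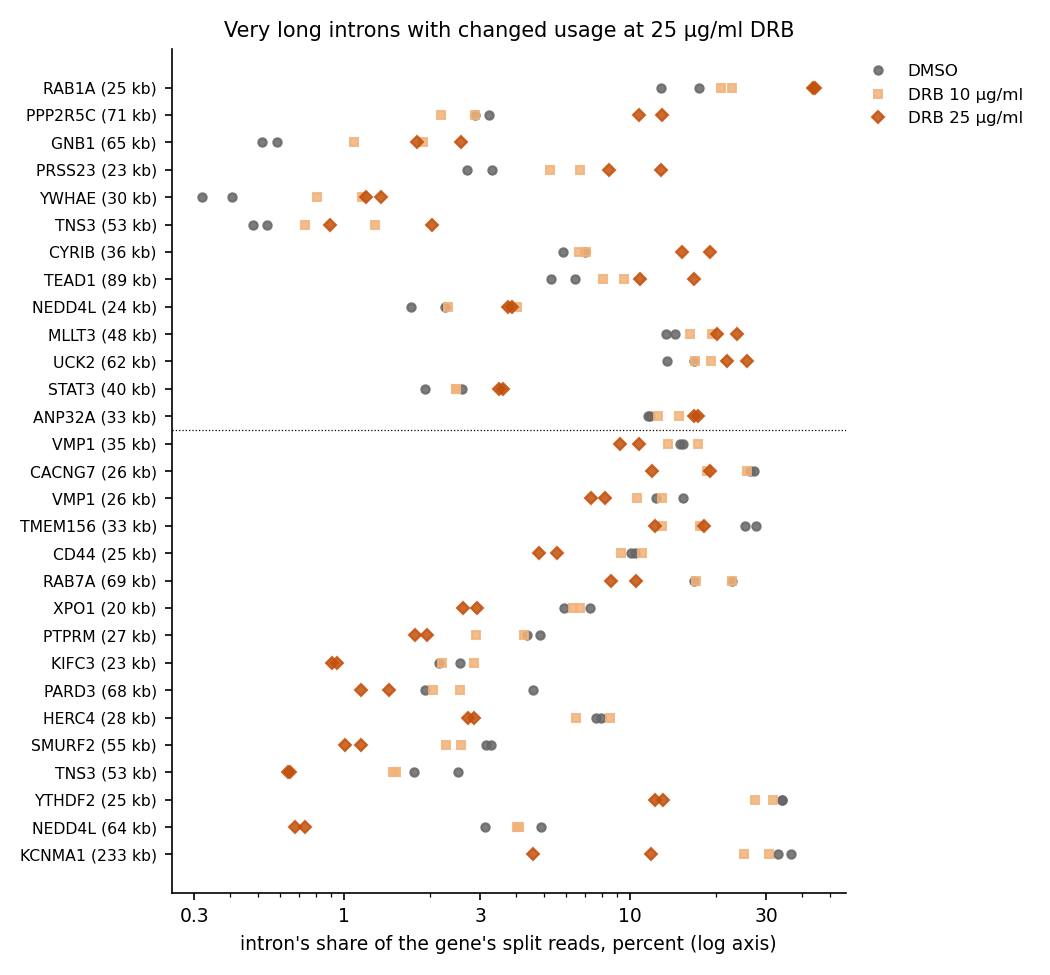
Share of the gene's split reads over each of the 29 very long introns whose usage changed under high-dose DRB (x axis, percent, log scale), with 1 point per library in DMSO and under low-dose and high-dose DRB; introns that rose are above the dotted line. In all 29 rows the 2 libraries under high-dose DRB lie outside the range of the DMSO libraries, for example at 43.6% and 44.6% against 12.9% and 17.5% in RAB1A.

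Of the 13 introns whose usage rose under high-dose DRB, 11 were first introns, as were 8 of the 16 that fell and 409 of the 776 tested. Over introns of all lengths, 145 of 344 that rose were first introns, as were 133 of 430 that fell and 9543 of 29662 tested. The largest rise was in RAB1A, a small GTPase of transport from the endoplasmic reticulum to the Golgi, whose first intron (chr2:65331940-65357027, 25086 nts, between coding exons) held 74 of 574 and 126 of 718 split reads of the gene in DMSO. It held 112 of 493 and 148 of 710 under low-dose DRB, and 44 of 101 and 87 of 195 under high-dose DRB, a log2 change of 2.11 ± 0.25 (SE; adjusted p = 4.66e-08). The shares did not overlap, and the gene total under high-dose DRB was below both DMSO libraries, while the reads over the intron itself overlapped those in DMSO. At α-amanitin the intron had 106 and 193 split reads at the lower and 119 and 186 at the higher dose, with adjusted p of 0.980 and 0.843.

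GNB1, a β subunit of heterotrimeric G proteins, gained reads over its outermost first intron (chr1:1756938-1822259, 65320 nts, in the 5′ untranslated region) in 3 comparisons. The intron had 14 and 17 split reads in DMSO, 36 and 80 under low-dose DRB and 28 and 71 under high-dose DRB, from gene totals of 2692 and 2903, 3293 and 4207, and 1549 and 2763. Log2 changes were 1.48 ± 0.34 (adjusted p = 0.00586) and 2.06 ± 0.34 (adjusted p = 1.26e-05). At α-amanitin it had 41 and 51 reads under low-dose α-amanitin (adjusted p = 0.514) and 50 and 69 under high-dose α-amanitin (log2 change 1.29 ± 0.31, adjusted p = 0.00542). The annotated intron of 51581 nts from the same donor had 168 and 178 reads in DMSO and 76 and 157 under high-dose DRB, so the long form remained the minor one. An annotated exon covers its acceptor boundary. Under low-dose DRB the call was lost without any one of DMSO replicate 1 (adjusted p = 0.184), DMSO replicate 2 (0.0868) and DRB replicate 2 (0.503), and under high-dose α-amanitin without any one of DMSO replicate 1 (0.207), DMSO replicate 2 (0.120) and the treated replicate 2 (0.154).

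PPP2R5C, a regulatory subunit of protein phosphatase 2A, had 11 and 14 split reads over an intron of 70502 nts (chr14:102252520-102323023, between coding exons) in DMSO and 9 and 10 under high-dose DRB. The gene total went from 382 and 436 to 69 and 93, and the intron of 46649 nts with the same acceptor went from 79 and 115 to 11 and 17 reads. The log2 change in usage was 2.08 ± 0.45 (adjusted p = 0.00719), and it was no longer called without DMSO replicate 1 (adjusted p = 0.134) or without replicate 1 (0.163) or 2 (0.0576) under high-dose DRB. PRSS23, a serine protease, and YWHAE, the 14-3-3 protein epsilon, rose in minor first introns of 22725 and 30305 nts in the 5′ untranslated region. In PRSS23 the intron had 9 and 15 reads in DMSO and 29 and 32 under high-dose DRB (log2 change 1.82 ± 0.37, adjusted p = 0.00052). In YWHAE it had 9 and 14 in DMSO and 20 and 33 (1.76 ± 0.37, adjusted p = 0.000942). The main form from the YWHAE donor, an intron of 34988 nts, had 754 and 928 reads in DMSO and 372 and 774 under high-dose DRB, with a log2 change of 0.01 ± 0.13 (adjusted p = 0.994).

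The remaining 8 introns that rose were in TNS3, CYRIB, TEAD1, NEDD4L, MLLT3, UCK2, STAT3 and ANP32A, and all 13 had folds of 1.57 to 4.33. TEAD1, a DNA-binding partner of YAP, had 22 and 29 reads over its first intron of 88617 nts in DMSO and 27 and 36 under high-dose DRB, while the gene total dropped from 415 and 451 to 161 and 330. STAT3, a transcription factor activated by cytokines, had 51 and 73 reads over a first intron of 39739 nts in DMSO and 104 and 154 under high-dose DRB.

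The largest decrease under high-dose DRB was in KCNMA1, the pore-forming subunit of a calcium-activated potassium channel. Its intron of 233241 nts (chr10:79163781-79397023, first, between coding exons) held 27 of 74 and 27 of 82 split reads counted for the gene in DMSO. It held 11 of 36 and 15 of 60 under low-dose DRB and 8 of 67 and 6 of 131 under high-dose DRB, a log2 change of -2.76 ± 0.47 (adjusted p = 1.59e-05). The donor shown above was joined instead to an annotated acceptor 749 nts away by 47 and 55 reads in DMSO and by 59 and 125 under high-dose DRB. These reads make up all the rest of the gene total, since no other intron of the gene entered it. The test thus compares the long intron with this short one from the same donor. Only 94 split reads over 6 libraries stand behind the long intron.

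In NEDD4L, a HECT-type ubiquitin ligase, 2 very long introns went in opposite directions. The intron of 63927 nts (chr18:55919286-55983214, between coding exons) had 29 and 52 split reads in DMSO, 53 and 71 under low-dose DRB and 15 and 28 under high-dose DRB, although the gene total was 932 and 1064 in DMSO and 2219 and 3826 at the high dose. Its log2 change was -2.55 ± 0.30 (adjusted p = 2.2e-08). Unannotated junctions joined the donor to acceptors 3627 and 3814 nts downstream. They had 26 and 65 and 23 and 35 reads under high-dose DRB, and none listed in any other library. The annotated intron of 59207 nts that ends at the same acceptor had 53 and 82 reads under high-dose DRB, 0 listed in DMSO and under low-dose DRB, and 4 in 1 library under high-dose α-amanitin. An intron of 23669 nts in the 5′ untranslated region had 16 and 24 reads in DMSO and 86 and 143 under high-dose DRB, a log2 change of 0.93 ± 0.29 (adjusted p = 0.046).

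YTHDF2, a reader of N6-methyladenosine, lost usage of the last intron of a transcript (24942 nts, chr1:29070498-29095441, between coding exons). This intron held 76 of 222 and 98 of 287 split reads in DMSO, 87 of 316 and 101 of 319 under low-dose DRB and 28 of 228 and 51 of 388 under high-dose DRB (log2 change -1.81 ± 0.25, adjusted p = 5.45e-07). An unannotated junction joined the acceptor to a donor 30590 nts upstream. It had no read listed in DMSO, 46 and 42 reads under low-dose DRB and 79 and 103 under high-dose DRB. It had 4 and 8 under low-dose α-amanitin, and 21 and 11 under high-dose α-amanitin. Reads of this form were thus listed in all 8 treated libraries.

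Another pair that differed by donor lay in TNS3, a tensin of focal adhesions. The donor that lost usage (intron of 53279 nts, chr7:47568745-47622025, between coding exons) had 57 and 36 reads in DMSO and 5 and 8 under high-dose DRB, a log2 change of -1.71 ± 0.44 (adjusted p = 0.0042). The one that gained usage (intron of 52903 nts) lay further downstream, in the 5′ untranslated region of another transcript. It had 11 and 11 reads in DMSO and 7 and 25 under high-dose DRB (1.65 ± 0.42, adjusted p = 0.0154). Its reads in replicate 1 thus lay below both DMSO libraries, while the gene total went from 2277 and 2043 to 780 and 1233. Fits without single libraries were not read out for this rise. The decrease was no longer called without DMSO replicate 1 (adjusted p = 0.0965) or without replicate 2 under high-dose DRB (0.139).

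SMURF2, a HECT-type ubiquitin ligase of SMAD signalling, had 31 and 40 reads over its first intron of 55188 nts (chr17:62602758-62657947) in DMSO and 13 and 20 under high-dose DRB, from gene totals of 945 and 1272, and 1291 and 1745. The log2 change was -1.58 ± 0.31 (adjusted p = 0.00052). Unannotated junctions joined donors inside the intron to its acceptor, with 12 and 28 reads (7228 nts) and 15 and 14 reads (19493 nts) under high-dose DRB. In DMSO none was listed. The other 11 introns that fell lay in 10 genes, with 2 in VMP1, which acts in autophagy, and 1 each in CD44, PARD3, PTPRM, XPO1, RAB7A, HERC4, KIFC3, TMEM156 and CACNG7. Over all 16 the folds were 0.148 to 0.637. XPO1, the main nuclear exporter of proteins, had 100 and 146 reads over an intron of 20300 nts in DMSO and 12 and 11 under high-dose DRB, with gene totals of 1700 and 2006 against 410 and 420.

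Leaving out single libraries changed the number of introns called under high-dose DRB from 29 to 15 without DMSO replicate 1 and to 18 without DRB replicate 2. Of the introns named for this dose, those of RAB1A, YTHDF2 and SMURF2 and the falling intron of NEDD4L were called under every alternative tried. The rising intron of NEDD4L was not among the introns checked in this way. GNB1, PRSS23, YWHAE and KCNMA1 were called with every library left out in turn, but not with introns missing from a library entered as 0 reads (adjusted p of 0.0573, 0.0706, 0.0669 and 0.419). With missing introns entered in this way, 2 very long introns rose and 16 fell under high-dose DRB, in place of 13 and 16.

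Under low-dose DRB the clearest changes were in HNRNPC, which encodes a protein that binds uridine tracts in nascent RNA. Its outer intron (35068 nts, chr14:21702388-21737457) and its middle intron (29081 nts, chr14:21702388-21731470) end at the same acceptor and lie in the 5′ untranslated region. The outer intron had 323 and 398 split reads in DMSO, 539 and 904 under low-dose DRB and 319 and 704 under high-dose DRB, from gene totals of 5586 and 7040, 3962 and 5767, and 4939 and 10715. The middle intron had 614 and 912 in DMSO, 189 and 342 under low-dose DRB and 559 and 1347 under high-dose DRB. Log2 changes under low-dose DRB were 1.52 ± 0.13 for the outer (adjusted p = 3.95e-12) and -1.25 ± 0.16 for the middle intron (adjusted p = 1.72e-07). Under high-dose DRB they were 0.21 ± 0.13 (adjusted p = 0.609) and 0.01 ± 0.11 (adjusted p = 0.987) for the same introns. The outer intron also rose under high-dose α-amanitin, with 623 and 588 of 6776 and 7659 reads (0.60 ± 0.10, adjusted p = 4.85e-05), a call lost without treated replicate 1 (adjusted p = 0.100).

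The other changes under low-dose DRB were smaller in reads. CPNE1, a calcium-dependent membrane-binding copine, had 20 and 19 reads over an intron of 31878 nts in DMSO and 35 and 33 under low-dose DRB (log2 change 1.30 ± 0.31, adjusted p = 0.0177). Over the annotated intron of 31836 nts with the same acceptor, the counts were 57 and 56 and then 17 and 35. KTN1, the kinesin receptor kinectin, had 16 and 17 reads over an intron of 21402 nts in DMSO and 25 and 24 under low-dose DRB, while the gene total went from 6090 and 5715 to 3176 and 4016 (1.28 ± 0.32, adjusted p = 0.0379).

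ANTXR1, a receptor of anthrax toxin and collagen, had a pair of changed introns under low-dose DRB. Its last intron of 51809 nts had 57 and 55 reads in DMSO and 98 and 108 under low-dose DRB (log2 change 0.80 ± 0.19, adjusted p = 0.022). An intron of 20682 nts that ends a shorter transcript had 33 and 45 and then 18 and 13 (-1.45 ± 0.33, adjusted p = 0.00837). The call in CPNE1 was lost without DMSO replicate 1 (adjusted p = 0.114), DMSO replicate 2 (0.243) or DRB replicate 1 (0.309), and that in the shorter ANTXR1 intron without DMSO replicate 2 (0.375) or DRB replicate 2 (0.283). The calls in KTN1 and in the last intron of ANTXR1 were lost without any 1 of the 2 DMSO and 2 DRB libraries (adjusted p of 0.0875 to 0.473 and 0.0965 to 0.466). The number of calls at this dose was 7 with all libraries, 3 and 2 without DMSO replicate 1 and 2, and 4 without either DRB library.

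Under high-dose α-amanitin the remaining calls were in RAB3GAP2, SLC38A1 and TMEM156. RAB3GAP2, a subunit of a Rab GTPase-activating complex, had 15 and 11 reads over its first intron of 39359 nts in DMSO, 37 and 45 under low-dose α-amanitin and 34 and 47 under high-dose α-amanitin, with log2 changes of 1.24 ± 0.34 (adjusted p = 0.451) and 1.28 ± 0.34 (adjusted p = 0.0379). SLC38A1, a transporter of neutral amino acids, had 33 and 36 in DMSO, 25 and 45 under low-dose α-amanitin and 10 and 21 under high-dose α-amanitin (-1.25 ± 0.32 at the higher dose, adjusted p = 0.0307). TMEM156 had 40 and 51 in DMSO and 23 and 24 under high-dose α-amanitin (-1.20 ± 0.30, adjusted p = 0.0286), and under high-dose DRB it had 25 and 29 (-1.08 ± 0.29, adjusted p = 0.0261). Without DMSO replicate 1 the adjusted p of RAB3GAP2, SLC38A1 and TMEM156 under high-dose α-amanitin was 0.0836, 0.217 and 0.103, and without DMSO replicate 2 it was 0.578, 0.246 and 0.377. Without α-amanitin replicate 1 it was 0.181 in RAB3GAP2 and 0.569 in SLC38A1, and without replicate 2 it was 0.190 in RAB3GAP2 and 0.702 in TMEM156. The count of 5 calls became 2 without DMSO replicate 2 or without α-amanitin replicate 1.

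Beyond single calls, the median log2 change in usage of very long introns was 0.05 under low-dose α-amanitin, 0.01 under high-dose α-amanitin, 0.05 under low-dose DRB and 0.03 under high-dose DRB. With introns missing from a library entered as 0 reads, the medians of very long introns were -0.02, -0.05, 0.02 and -0.10, so that the sign turned in all but low-dose DRB. For introns below 20 kb the medians, over introns listed in every library, were 0.00, 0.00, 0.00 and 0.01. First introns of the set stood at 0.08, 0.00, 0.07 and 0.10 and the others at 0.01, 0.01, 0.02 and -0.02. DMSO replicate 2 against replicate 1, over the same introns, gave 0.04 for the introns tested with α-amanitin and 0.05 for those tested with DRB, so that shifts of this size also separated the control libraries. First introns alone gave 0.06 and 0.07 between the DMSO libraries, and the others 0.01 and 0.01. Under high-dose DRB, introns of 5 to 20 kb also differed by position, at 0.05 when first and -0.02 when not. At the limit of length, introns of 20 to 21 kb had a median of 0.07 under high-dose DRB and those of 19 to 20 kb -0.06 (52 and 61 introns). In 304 introns with enough reads on both sides, the log2 ratio of split reads downstream to upstream of the long intron differed from DMSO by a median of -0.03 and 0.02 at the α-amanitin doses and by 0.00 and -0.04 at those of DRB. For introns of 5 to 20 kb these medians were -0.04, 0.01, -0.03 and -0.03.

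Unannotated junctions inside very long introns were the measure on which the highest dose of DRB stood furthest from the other conditions. A junction was counted when one end was the donor or acceptor of a very long intron and the other lay inside the intron. The junction as a whole had to match no annotated one, while its inner site could be annotated. In 2147 introns given to 1 gene, reads over such junctions came to 0.304% and 0.345% of the introns' own split reads in DMSO, 0.363% and 0.512% under low-dose α-amanitin, 0.623% and 0.518% under high-dose α-amanitin, 0.591% and 0.571% under low-dose DRB, and 4.29% and 3.85% under high-dose DRB. The junctions listed were 48 and 52 in DMSO and 207 and 321 under high-dose DRB, in 44 and 50 and in 133 and 195 introns. All treated libraries lay above both DMSO libraries, and the libraries under high-dose DRB lay apart from the rest.

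Over the 814 of these introns listed in all 10 libraries, the share was 0.243% and 0.190% in DMSO and 3.78% and 3.43% under high-dose DRB. Annotated introns of 5 to 20 kb listed in all 10 libraries had 0.138% and 0.139% in DMSO and 1.34% and 1.20% under high-dose DRB, and those of 1 to 5 kb had 0.0695% and 0.0782% and then 0.557% and 0.429%. The share therefore was higher in longer introns in DMSO and under high-dose DRB alike. A longer intron also holds more positions at which such a site can lie, and the share per position was not tested.

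**Figure D3:**
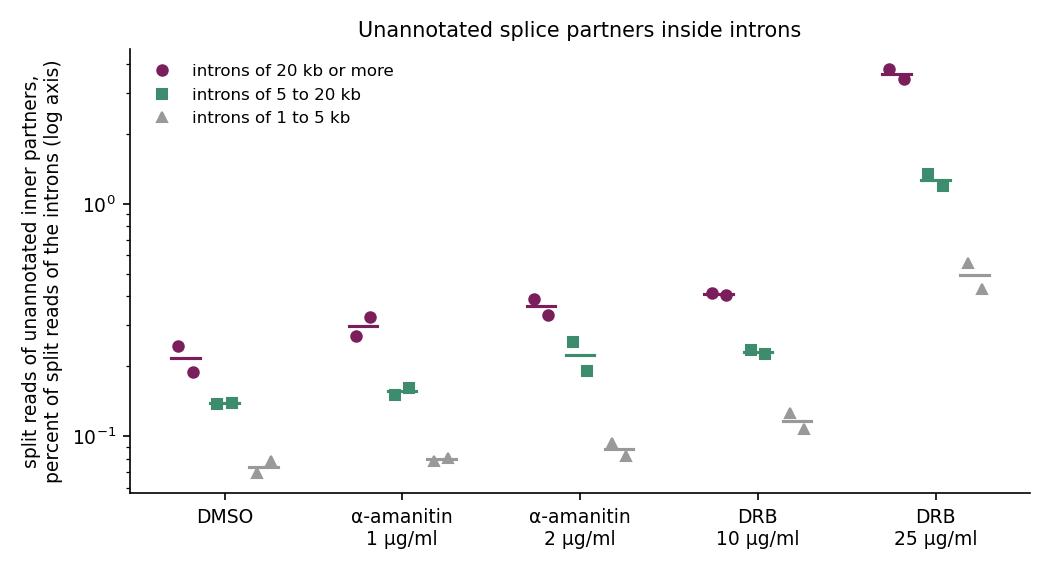
Split reads that join a donor or acceptor of an intron to an unannotated partner inside it, as a percentage of the split reads of the introns (y axis, log scale), by condition and length class; points are libraries, bars are means of 2, and introns are those listed in all 10 libraries. For introns of 20 kb or more the libraries lie at 0.243% and 0.190% in DMSO and at 3.78% and 3.43% under high-dose DRB, above the shorter classes in every condition.

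Where both an inner acceptor and an inner donor were found within 1000 nts of each other, the stretch between them is called an inner exon, unannotated after its junctions. Such an exon is inferred, and whether the reads on its sides come from the same RNA was not tested. Its junctions could be listed in different libraries. A site could also enter several exons, so the counts below hold some junctions more than once. Whether the exon itself is annotated was not checked. There were 109 such exons in 77 very long introns, with a median length of 141 nts. Both of their junctions were listed for 0 and 3 in DMSO, 5 and 9 under low-dose α-amanitin, 10 and 9 under high-dose α-amanitin, 8 and 7 under low-dose DRB, and 35 and 53 under high-dose DRB. Both junctions were listed in both libraries under high-dose DRB and neither in DMSO for 22 of them.

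Taking from these 22 the exon with most reads in each gene, the 6 genes with most were DNAJB6, CD44, TXNRD1, DCBLD2, HMGA2 and RAB7A, and since they were chosen by their reads, their values are descriptions. DNAJB6 and DCBLD2 also had overlapping inner exons with another boundary, which are not described. DNAJB6, a co-chaperone of HSP70, had 43 and 54 reads into and 28 and 53 reads out of an inner exon of 314 nts (chr7:157182775-157183088) under high-dose DRB and none listed in the other 8 libraries. The whole intron of 24183 nts was spliced by 9 and 27 reads in DMSO and by 18 and 53 at that dose. Junctions of the inner exon thus had more reads than the annotated one in replicate 1 and about as many in replicate 2.

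CD44, the hyaluronan receptor, had 6 and 11 reads into and 57 and 55 out of an inner exon of 550 nts (chr11:35222193-35222742) under high-dose DRB. At the other doses 3 reads were listed, in 1 library under low-dose DRB. The annotated intron of 24786 nts, whose usage fell at that dose, had 205 and 231 split reads in DMSO and 92 and 122 under high-dose DRB. TXNRD1, a thioredoxin reductase, had 15 and 16 reads into and 28 and 26 out of an inner exon of 443 nts (chr12:104697568-104698010), and the intron of 22249 nts around it had 864 and 1034 reads in DMSO and 443 and 812 under high-dose DRB. From the same donor, an annotated intron of 24204 nts had 5 and 4 reads in DMSO and 95 and 81 under high-dose DRB.

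HMGA2, an architectural chromatin protein, had 9 and 13 reads into and 29 and 7 out of an inner exon of 102 nts, within an intron of 112813 nts that had 81 and 106 reads in DMSO and 104 and 136 under high-dose DRB. DCBLD2 had 40 and 27 reads into and 8 and 6 out of an inner exon of 709 nts. RAB7A, a small GTPase of late endosomes, had 16 and 26 into and 8 and 7 out of one of 600 nts, and its first intron of 69000 nts had 121 and 101 reads in DMSO and 25 and 44 under high-dose DRB. The stretches around the inner acceptor and inner donor of DCBLD2 occur 30 and 762 times in GRCh37, and those of RAB7A 44 and 2 times, and whether this affected the placing of reads was not tested. The 8 inner sites of the other 4 genes occur once each. The stretch around the outer donor of DNAJB6, where its reads into the inner exon start, occurs 2 times, and its effect was not tested either.

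**Figure D4:**
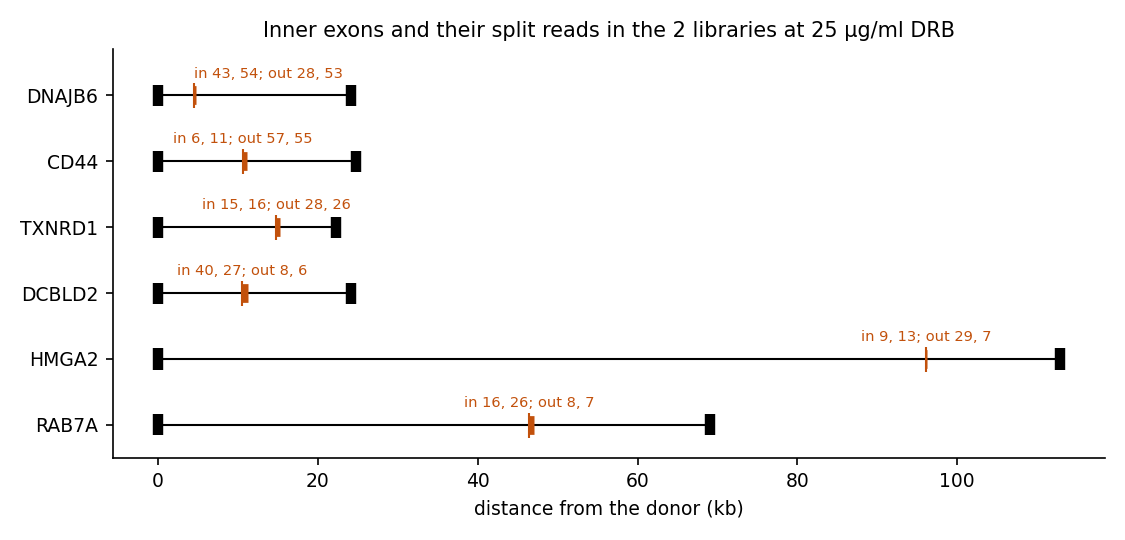
The unannotated inner exon with most reads in each of 6 genes, drawn to scale in their introns by distance from the donor (x axis, kb); black blocks mark the flanking exons, whose width is not to scale, and orange blocks the inner exons, with the split reads into and out of each in the 2 libraries under high-dose DRB. DNAJB6 has 43 and 54 reads in and 28 and 53 out, and the exon in HMGA2 lies within an intron of 112813 nts. Each inner exon is inferred from a pair of junctions.

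Reads from the donors of very long introns to any other acceptor made up 9.38% and 10.2% of the split reads at these donors in DMSO and 13.5% and 13.6% under high-dose DRB, over the introns listed in all 10 libraries. At the acceptors the values were 9.27% and 10.0% and then 13.1% and 13.8%. For introns below 20 kb they were 3.519% and 3.604% and then 4.96% and 4.69% at the donors. Under low-dose DRB the donors of very long introns had 9.33% and 9.20%, below both DMSO libraries, and the acceptors 10.1% and 10.3%, above both.

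Unspliced reads, which cross a donor or acceptor boundary without splicing, made up a larger part of the reads of very long introns under high-dose DRB. Introns with another annotated exon over a boundary (360 at the donor and 257 at the acceptor) were left out of this sum, since reads of that exon are counted as unspliced. The remaining introns listed in all 10 libraries had 0.571% and 0.369% unspliced reads in DMSO, 0.416% and 0.437% under low-dose α-amanitin, 0.443% and 0.339% under high-dose α-amanitin, 0.907% and 0.348% under low-dose DRB, and 2.22% and 1.31% under high-dose DRB. Introns below 20 kb, chosen alike, had 0.682% and 0.509% in DMSO and 1.63% and 0.832% under high-dose DRB. The means at that dose were 3.75 times the DMSO mean for very long introns and 2.06 times for the shorter ones. The 2 libraries of each DRB dose differed widely, with replicate 1 the higher at both.

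Under high-dose DRB more of these reads lay at the donor than at the acceptor in both libraries, which was not so in both libraries of any other condition. Donor reads numbered 100 and 66 in DMSO and 425 and 324 under high-dose DRB, and acceptor reads 94 and 70 and then 171 and 233. They came from few introns, with donor reads listed in 20 and 15 introns in DMSO and in 66 and 50 under high-dose DRB, and acceptor reads in 18 and 15 and in 35 and 39. A count listed as 0 can hide up to 2 reads. In single introns the balance of donor and acceptor reads was tested for 49 very long introns with α-amanitin and 25 with DRB, and none passed by the limma-moderated test (0% of all 3712 and 1971 introns tested, in either direction, at any dose). Unadjusted p was under 0.05 for 1 and 3 of them at the α-amanitin doses and for 1 and 6 at those of DRB.

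**Figure D5:**
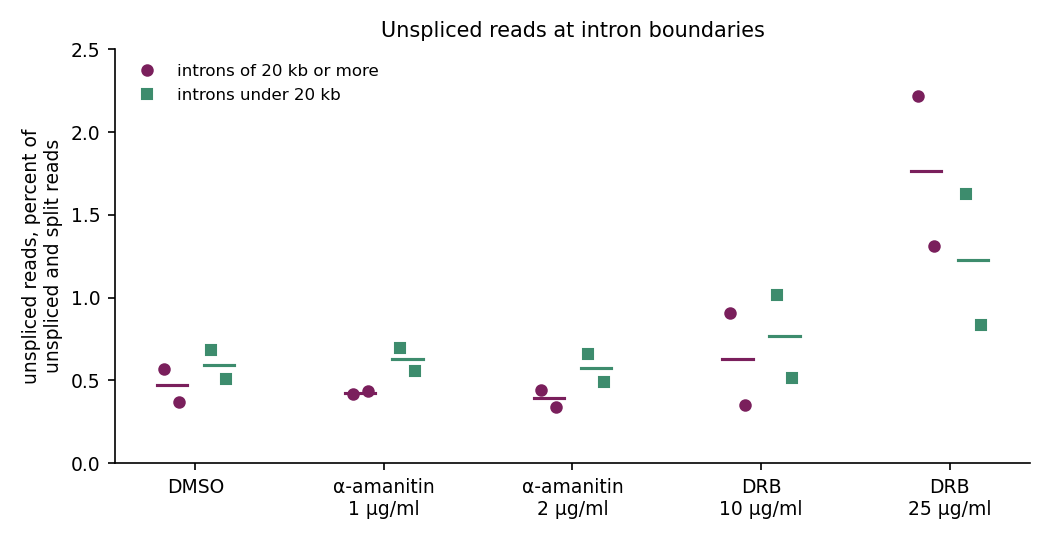
Unspliced reads as a percentage of unspliced and split reads (y axis) by condition, for introns of 20 kb or more and below 20 kb that were listed in all 10 libraries and have no other exon over a boundary; points are libraries and bars are means of 2. Under high-dose DRB very long introns lie at 2.22% and 1.31%, above both DMSO libraries at 0.571% and 0.369%.

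Tested singly against split reads, unspliced reads rose in 21 of 100 very long introns under high-dose DRB and fell in none. Of all 6731 introns tested, 7.46% rose and 3.33% fell. An intron entered this test with at least 10 unspliced reads over the fit. Those listed at 0 in DMSO, such as WNT7B and SMURF2, thus entered through DRB libraries alone and could not fall. No conclusion is drawn from the direction of the calls, and the part of this filter in their number was not tested. Under low-dose DRB none of the 100 passed (11 at an unadjusted p under 0.05), with 0% of all introns in either direction. None of 130 passed at either dose of α-amanitin (9 and 17 at an unadjusted p under 0.05), where 0% of 9114 introns were called under low-dose α-amanitin and 0.0329% each rose and fell under high-dose α-amanitin. The 21 calls rested on all libraries. None was left without any 1 of DMSO replicates 1 and 2 and DRB replicates 1 and 2 under high-dose DRB, nor with the replicate number as a block or with DMSO and that dose alone in the fit, although 32 of 91 members then had an unadjusted p under 0.05. The fit with all 10 libraries called 26.

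Of the 21 introns, 13 were first introns and 9 had another exon over a boundary. HERC4, a ubiquitin ligase, had no unspliced read listed over 38 and 67 split reads in DMSO, and 11 and 6 unspliced reads beside 8 and 8 split reads under high-dose DRB (adjusted p = 0.0317). WNT7B, a secreted Wnt ligand, had none beside 69 and 79 split reads in DMSO, and 7 and 4, all at the donor, beside 9 and 10 split reads (adjusted p = 0.0218). SLC25A37, a mitochondrial iron importer, had none beside 31 and 33 in DMSO, and 7 and 14 at the donor beside 5 and 12 (adjusted p = 0.0309). With DMSO listed at 0 in these introns, and in those of SMURF2 and TRIO below, no fold is given and a fall could not be seen. Their adjusted p is therefore given as a description and not as support for a rise.

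In SMURF2 unspliced reads were 0 beside 31 and 40 split reads in DMSO and 10 and 15 beside 13 and 20 under high-dose DRB (adjusted p = 0.0218). TRIO had 0 beside 23 and 32 split reads in DMSO and 24 and 24 beside 47 and 31 (adjusted p = 0.0378), mostly at the acceptor. An unannotated intron of 190 nts with the same acceptor had 48 and 45 reads there, and another exon covers the donor boundary of the long intron. ETF1, a translation termination factor, had 3 and 0 unspliced reads in DMSO and 72 and 87 under high-dose DRB, the most of the 21, with another exon over a boundary. ELOVL5, a fatty acid elongase, had 4 and 7 and then 13 and 13, beside 178 and 173 and then 8 and 25 split reads. Usage fell and unspliced reads rose under high-dose DRB in 7 introns, 43.8% of the 16 with lower usage and 33.3% of the 21 with more unspliced reads. Both measures share the intron's split reads, and the overlap was not tested. These 7 lay in CD44, HERC4, KIFC3, NEDD4L, RAB7A, SMURF2 and TMEM156.

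Apart from the middle intron of HNRNPC, none of the 5 introns with most split reads in DMSO passed the usage test in any comparison. TXNRD1 had the most split reads in DMSO (1898 in both libraries), with a log2 change of -0.22 ± 0.12 under high-dose DRB (adjusted p = 0.52). CAV1, the coat protein of caveolae, had 560 and 587 reads over an intron of 32256 nts in DMSO and 351 and 628 under high-dose DRB (0.43 ± 0.23, adjusted p = 0.487), and CYB5B, an outer mitochondrial membrane cytochrome, had 600 and 510 and then 108 and 181 (0.07 ± 0.20, adjusted p = 0.954). No unspliced read was listed for either in any library.

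Among the 5 longest introns, those of NEGR1 (347007 nts), CMSS1 (328929), UBE2E2 (282295), EXT1 (272883) and PCDH9 (272092), CMSS1 alone could be tested with DRB. It had 40 and 48 split reads in DMSO, 47 and 49 under low-dose DRB and 16 and 39 under high-dose DRB, and 37 and 65, and 51 and 52 at the α-amanitin doses, with adjusted p of at least 0.626. EXT1, a glycosyltransferase of heparan sulfate, had 63 and 44 in DMSO, 35 and 64 under low-dose DRB and 9 and 20 under high-dose DRB. UBE2E2, a ubiquitin-conjugating enzyme, had 16 and 22 in DMSO, 11 and 13 under low-dose DRB and none listed under high-dose DRB, and PCDH9, a protocadherin, with 10 and 11 in DMSO, was otherwise listed in 1 library under low-dose α-amanitin.

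Genes of 7 lists of 26 to 35 genes were read out by function, and most of their very long introns did not pass the usage test. The lists are not complete, and called introns of RAB1A, RAB7A, YTHDF2, HERC4 and VMP1, described above by related functions, lie in none of them. In adhesion, polarity and cytoskeleton genes, 39 introns were tested with DRB, and under high-dose DRB 1 rose (TNS3) and 4 fell (CD44, PARD3, PTPRM and TNS3), beside 1.16% and 1.45% of all introns tested, with a median log2 change of -0.02 against 0.03 over all very long introns tested. In CD44 it was the intron of 24786 nts that fell, while its first intron of 37204 nts had 238 and 299 reads in DMSO and 221 and 406 under high-dose DRB (0.27 ± 0.15, adjusted p = 0.479). CTNNA1, the α-catenin of adherens junctions, had 214 and 269 over an intron of 58493 nts in DMSO and 153 and 286 (-0.10 ± 0.14, adjusted p = 0.892). Of 10 introns in the ubiquitin and autophagy list 1 rose and 2 fell (in NEDD4L and SMURF2), with a median of -0.23, and of 10 in transcription factor and chromatin genes 1 rose (TEAD1), with a median of -0.15.

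None passed under high-dose DRB among 12 introns of the RNA processing list, 8 of receptors and signalling and 6 of membrane traffic and transport, with medians of 0.00, 0.10 and 0.05. In GALNT2, an enzyme that starts O-glycans, the first intron of 110810 nts had 84 and 128 reads in DMSO and 108 and 162 under high-dose DRB (0.03 ± 0.17, adjusted p = 0.979). Introns of genes at common fragile sites could be tested with α-amanitin alone, where none of 13 passed and the medians were -0.09 and -0.11. DPYD, which degrades pyrimidines, had 28 and 30 reads over its first intron in DMSO, 35 and 39 under low-dose α-amanitin and 28 and 26 under high-dose α-amanitin. No intron of any list passed under low-dose DRB or with α-amanitin.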

How the data were processed

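Poly(A) RNA from 10 A549 libraries (5 conditions with 2 libraries each) had been aligned to GRCh37 by the authors with STAR (the submitters' notes name version 2.7.3a and the methods another) and turned with the IPSA pipeline into lists of introns, after filtering of split reads on offset entropy, annotation status and splice site dinucleotides. The deposited attribute field holds, per intron and library, raw counts of split reads, of unspliced reads at the donor and the acceptor, and of split reads joining either site to another partner. The deposited score column is a rescaled inclusion value for display and was not used.

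Introns were matched to GENCODE v44lift37, and 402764 annotated introns were available, 44162 of them of 20 kb or more. Members, gene lists and tests were chosen with earlier results of these data known. Because the counts sit in a text field, a quasi-binomial model was fitted to each intron, with its spread moderated across introns by limma 3.58.1 (R 4.3.3) with a floor of 1, an F test per contrast and Benjamini-Hochberg adjustment over all introns tested, at an adjusted p of 0.05. Each fit took 6 libraries, those of DMSO and of the 2 doses of a drug. Usage needed at least 30 split reads over the fit and 10 over other introns of the gene in every library. Only introns listed in every library of the fit entered the gene total. Unspliced reads needed 10 reads per library and 10 unspliced reads over the fit, and the donor side 20. An added 0.5 entered the pooled counts of each group behind the log2 changes and standard errors of the main tests. It also entered log2 changes of single libraries. The model was tested on simulated data, where the share of false calls could exceed the nominal level.

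Named introns were, per comparison and test, up to 5 rises and 5 falls with the largest change among those called with at least 50 split reads whose libraries did not overlap DMSO, the 5 with most reads in DMSO, the 5 longest, and the 3 genes with most reads in each of 7 lists. Other called introns, partners and inner exons were named after their values were seen. Alternatives were another length limit, no filter, missing introns entered as 0, other samples in the fit, the replicate block and each library left out. Replicate numbers did not pair the libraries, as deviations of same-numbered libraries correlated between -0.0158 and 0.0814. Python 3.11.15, pandas 2.3.3, numpy 2.4.6 and matplotlib 3.10.9 were used.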

Additional observations from a re-analysis of the deposited data

Results flagged for a closer look

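Unannotated introns of 20 kb or more, 2064 in all, do not enter the comparisons above except where they share a site with an annotated one. Their signal lay above the level of the DMSO libraries in all treated groups. They held 300.4 and 352.5 RPM (split reads scaled to library size) in DMSO, with 149 and 180 introns listed. The means of 2 libraries were 400.8 RPM under low-dose α-amanitin, 415.3 under high-dose α-amanitin, 449.4 under low-dose DRB and 1682 under high-dose DRB. The libraries under high-dose DRB held 1918 and 1446 RPM, in 834 and 998 listed introns, although one of them had the fewest split reads of all. The difference was not tested.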

How the results depend on the processing

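With 2 libraries per group, exact tests cannot reach 0.05, and the minimum for listing limits every value under high-dose DRB. Of 218 alternative usage values of introns named for a call, 153 remained past the threshold, 65 did not and 0 reversed, and of 50 for unspliced reads 21 remained and 29 did not. Under high-dose α-amanitin the 5 usage calls became 1 at a limit of 50 kb, 0 with missing introns entered as 0, 2 with DMSO and this dose alone and 2 with all 10 libraries. Under low-dose DRB the 7 became 2 at 50 kb and 1 with missing introns as 0, and under high-dose DRB the 29 became 11 and 18 (2 rises and 16 falls). With the replicate block, usage calls were 0 and 5 for α-amanitin and 8 and 34 for DRB, and the 21 calls of unspliced reads under high-dose DRB became 0. These 21 became 10 without introns that have another exon over a boundary, 7 without a filter and 0 with DMSO and this dose alone, and 3 calls appeared under high-dose α-amanitin with unspliced counts of 0 set to 2. Without a trend in the moderation, usage calls were 2, 2 and 16 under high-dose α-amanitin and the DRB doses. Leaving out single libraries gave 0 to 0 usage calls under low-dose α-amanitin, 2 to 6 under high-dose α-amanitin, 2 to 4 under low-dose DRB and 15 to 31 under high-dose DRB, and 0 to 0 calls of unspliced reads. The change of the share of all split reads under high-dose DRB, -25.5% against DMSO, was 8.12% over introns listed in all 10 libraries and -20.8% over all annotated introns of 20 kb or more. Under low-dose α-amanitin these were 4.32% and 5.98%, under low-dose DRB 5.77% and 10.8%, and under high-dose α-amanitin -0.51% over introns listed in all 10 libraries.

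Over introns listed in all 10 libraries, the share of the genes' split reads changed by 2.83% and -2.59% at the DRB doses, and that of inner partners by 1560% under high-dose DRB. Unspliced reads changed by 275% at that dose without introns that have another exon over a boundary. For introns of 100 kb and over, all annotated ones and those with 200 split reads gave -2.06% and -3.39% under low-dose α-amanitin, -15% (the latter choice) under high-dose α-amanitin, 14.1% and 15.4% under low-dose DRB and -23.5% and -7.05% under high-dose DRB. The causes were not tested.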
